A study of Arabidopsis thaliana with 18 samples.

Results

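Wild-type Arabidopsis thaliana seedlings given 8 h of light were compared with seedlings of the same accession, Col-0, kept in the dark. Whole seedlings were raised for 4 days in the dark on 1/2 MS plates that held no sucrose, so both groups share dark germination without external sugar. One group was then moved to light for 8 h and is represented by 2 ATH1 arrays, and the other was taken straight from the dark and is represented by 3. These members were chosen by their labels and make up 5 of the 18 arrays of the series. The other arrays are wild type after 2 h and 4 h of light, with 2 arrays each, and the mutant jmj17-1, which bears a lesion in JMJ17, a histone H3K4 demethylase gene, at the same 4 stages. The sources used here state neither the strength and colour of the light nor whether replicates came from separate sowings, and each p below therefore reflects array-to-array spread that could be technical.

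A seedling that germinates in the dark elongates its hypocotyl, keeps its apical hook closed and builds etioplasts that hold protochlorophyllide in place of chlorophyll. Phytochromes and cryptochromes register light, inactivate the phytochrome-interacting factors (PIFs) and hold back the COP1 and SPA ubiquitin ligase, which lets HY5 and related factors accumulate. Chlorophyll and the photosynthetic complexes are then built together, hypocotyl growth slows, and pigments that screen or dissipate excess light are made.

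Levels below are log2 of the intensities that the authors summarised from the arrays. A difference is the mean at 8 h minus the mean in the dark, so that 1 means a 2-fold higher level, and ± gives its standard error from one limma fit over the 18 arrays. A gene was called higher or lower where the Benjamini-Hochberg adjusted p over the 6847 probe sets of the deposited table was under 0.05. The authors had kept those 6847 of 22810 probe sets, all of which had an unadjusted p of at most 0.0237 between 2 h of light and dark in jmj17-1, so shares within the table are not shares of the genome. That p came from a separate limma fit of the jmj17-1 2 h and dark arrays alone. In a like fit of the wild-type 8 h and dark arrays alone, an unadjusted p under 0.05 was found for 83% of the probe sets kept. For those left out the share was 40.2%. The median standard deviation between arrays was 0.071 at 8 h and 0.083 in the dark. The 8 h arrays correlated at 0.9963 across probe sets and the dark arrays at 0.9959 or more, against 0.8149 to 0.8274 between an 8 h and a dark array. The number of arrays limits the precision. In whole seedlings, fewer cells of a type and less RNA per cell cannot be told apart. A gene counts as measured here only where a probe set kept by the authors was annotated to it alone. Of 20 root tissue markers 4 were measured, and SHR, RCI3 and GL2 were lower by 0.44 to 0.70 while SCR was higher by 0.19, a call lost without either 8 h array or dark array 2. The only seed marker measured, the oleosin gene OLEO2, differed by 0.17 ± 0.41 (adjusted p = 0.707).

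Most transcripts in the table differed after 8 h of light. In all, 5499 probe sets passed (80.3%), 2171 of them higher (31.7%) and 3328 lower (48.6%) than in the dark. Larger changes were more often rises, with 1907 at least 2-fold (27.9%), 1098 of them higher (16%) and 809 lower (11.8%). At least 8-fold higher were 168 and at least 8-fold lower 56. The median difference over all probe sets was -0.20. The arrays of the groups did not overlap for 6061 probe sets (88.5%), with the 8 h arrays above for 2403 (35.1%) and below for 3658 (53.4%), so that separation of the arrays is the usual case in this table.

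**Figure D1:**
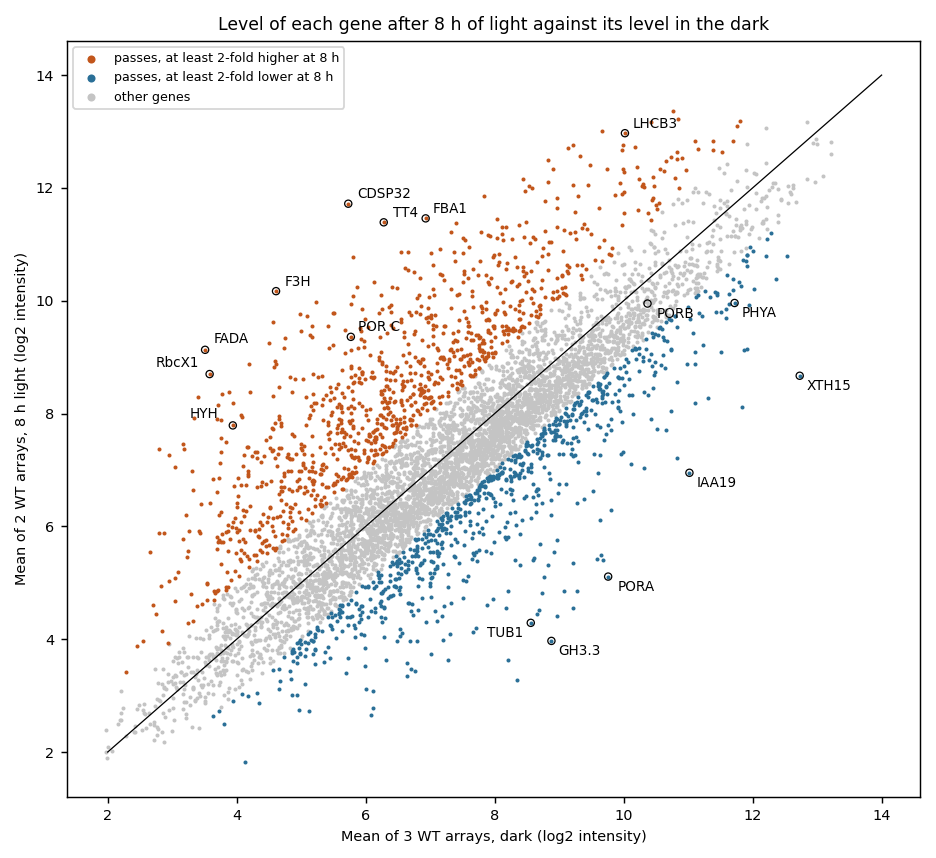
Mean log2 intensity of each of 6481 genes on the 2 wild-type arrays after 8 h of light (vertical axis) and on the 3 wild-type arrays from the dark (horizontal axis). Coloured points pass and differ at least 2-fold; CDSP32, at 11.72 against 5.73, lies above the line of equal levels and PORA, at 5.11 against 9.76, below it.

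Genes of the thylakoid were mostly higher. Of 274 measured genes whose annotation in the deposited table names the thylakoid, 243 were higher at 8 h and 19 lower (88.7% and 6.93%), with a median difference of 2.06. For 1321 chloroplast genes the counts were 784 and 355, with a median of 0.59. Among 424 Golgi genes 72 were higher and 273 lower, and among 260 cell wall genes 67 and 154. The 718 mitochondrial genes divided into 284 higher and 285 lower. A gene can carry several of these annotations, and the compartments were chosen after values had been seen.

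**Figure D2:**
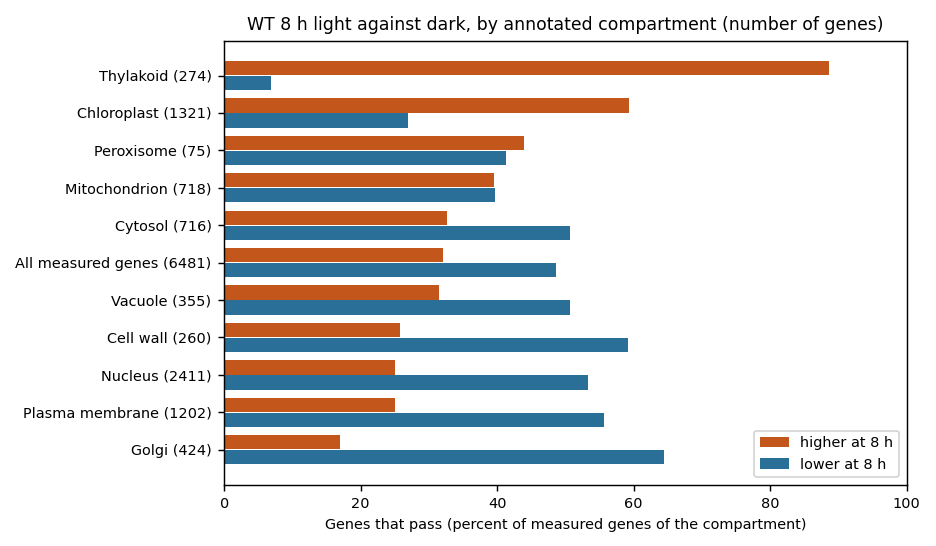
Percent of the measured genes of each annotated compartment that were higher or lower in wild type after 8 h of light than in the dark, with the number of genes in brackets. Of thylakoid genes 88.7% are higher and 6.93% lower, and of Golgi genes 17% are higher and 64.4% lower.

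Gene lists for the pathways below were read against all 6481 measured genes, of which 2077 were higher and 3148 lower, with a median of -0.20.

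**Figure D3:**
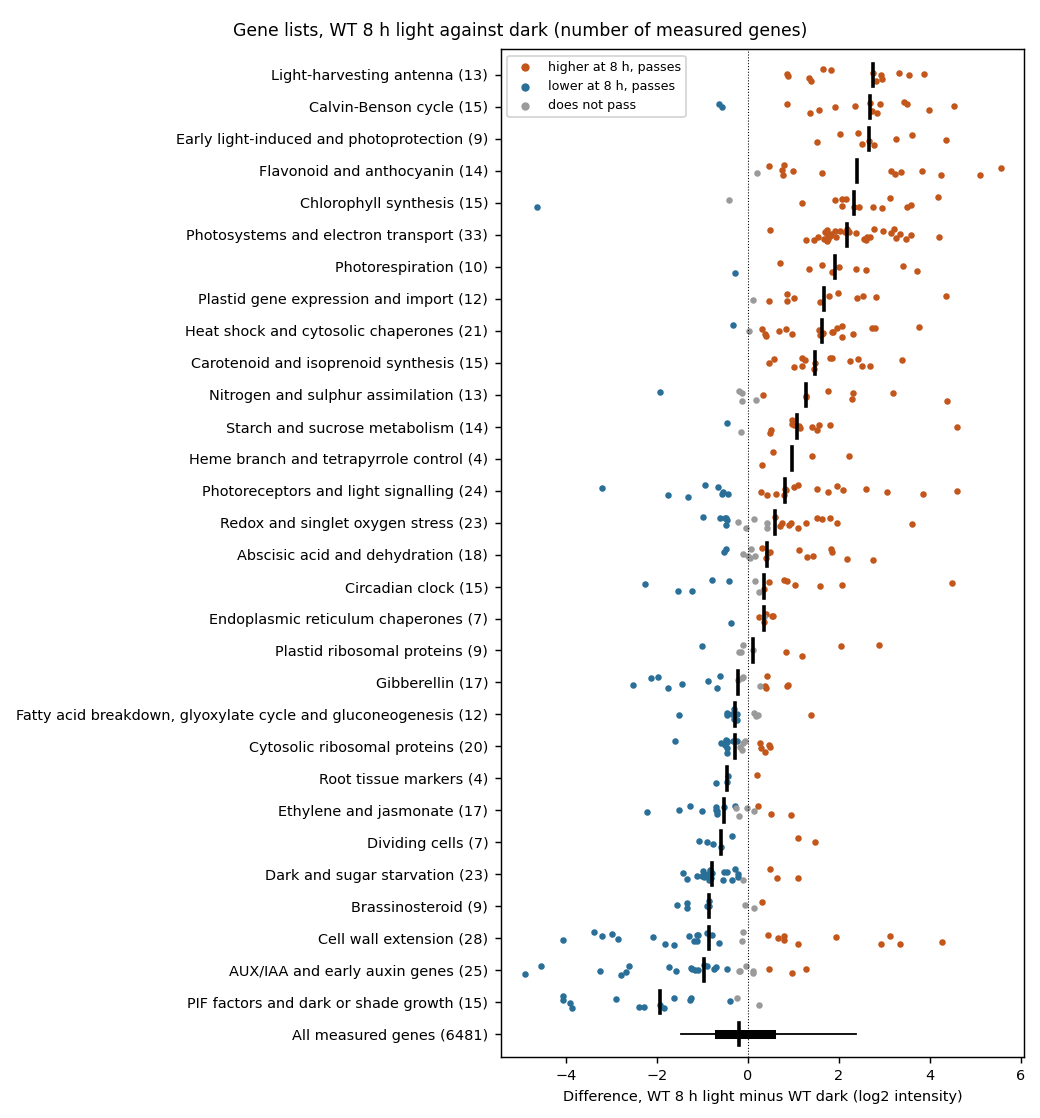
Difference in log2 intensity, wild type after 8 h of light minus dark, for every measured member of each gene list, with the list median and, for comparison, the spread of all 6481 genes. The antenna list has a median of 2.75 and the list of PIF factors and dark or shade growth one of -1.93.

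The largest rise was that of CDSP32, a thioredoxin-like protein of the chloroplast stroma, which read 11.73 and 11.71 at 8 h, against 5.67, 5.55 and 5.98 in the dark. That difference of 5.99 ± 0.37 (adjusted p = 9.41e-10) is 63.5-fold. FADA, the desaturase also called FAD4 that acts on phosphatidylglycerol of the thylakoid, had 9.13 and 9.12 at 8 h, against 3.20, 3.66 and 3.67 in the dark. RbcX1, an assembly chaperone of Rubisco, had 8.77 and 8.63 at 8 h, against 3.64, 3.52 and 3.57 in the dark. The 8 h arrays lay several log2 units above the dark arrays for all of these genes. They were picked as the largest rises without overlap of the arrays, so this separation follows from the choice. The dark arrays of CDSP32 and FADA spread more (SD 0.22 and 0.27) than those of RbcX1 (SD 0.06). The dark levels of FADA and RbcX1 were among the dimmest 5 percent, so the exact sizes of their rises, 5.62 ± 0.35 and 5.12 ± 0.11, are not established. FBA5, an aldolase, rose by 5.06 ± 0.21, and MSRB6, a methionine sulfoxide reductase, by 4.97 ± 0.15.

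Chlorophyll is made from glutamate through 5-aminolevulinic acid and protoporphyrin, and the step that needs light is the reduction of protochlorophyllide by the oxidoreductases PORA, PORB and PORC. Of 25 listed genes 15 were measured: 13 rose, 1 fell and 1 did not pass, with a median of 2.34. HEMA1, the glutamyl-tRNA reductase that opens the pathway, had 9.52 and 9.60 at 8 h, against 7.21, 7.27 and 7.18 in the dark, a rise of 2.34 ± 0.13 (adjusted p = 3.74e-10). GUN5, the CHLH subunit of magnesium chelatase, had 12.08 and 11.97 at 8 h, against 8.45, 8.58 and 8.58 in the dark, a rise of 3.49 ± 0.33. The chelatase subunit gene CHLI1 rose by 3.13 ± 0.27 and GUN4, the activator of the enzyme, by 2.95 ± 0.31. PCB2, the divinyl reductase, showed the largest rise of the list, with 8.4 and 8.38 at 8 h, against 3.96, 4.3 and 4.35 in the dark (4.19 ± 0.41).

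The oxidoreductase genes went separate ways. PORA, the form that accumulates in etiolated seedlings, had 5.16 and 5.06 at 8 h, against 9.82, 9.70 and 9.74 in the dark. It fell by 4.65 (SE 0.30, adjusted p = 1.55e-09) and was the only measured gene of the pathway to fall. PORC, written POR C in the annotation, had 9.40 and 9.33 at 8 h, against 5.90, 5.66 and 5.74 in the dark, a rise of 3.59 ± 0.42 (adjusted p = 1.17e-06). PORB, which acts in dark and light, had 10.05 and 9.85 at 8 h, against 10.41, 10.34 and 10.35 in the dark. Its 8 h arrays lay below the dark ones, yet the difference of -0.42 ± 0.25 did not pass (adjusted p = 0.127), though it did pass where only the arrays compared entered the fit. PORB stood at -1.38 relative to dark after 2 h and -0.49 after 4 h, and PORA at -2.47 and -3.74. The 8 h level of PORB differed from its 2 h level by 0.96 ± 0.27 (adjusted p = 0.00645).

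All 4 measured genes of 8 listed for the heme branch and tetrapyrrole control rose, with a median of 0.98. They were the ferrochelatases FC2 (2.22 ± 0.16) and FC1 (0.55 ± 0.09), the plastid signalling factor GUN1 (1.4 ± 0.11) and FLU, the brake on 5-aminolevulinic acid synthesis (0.30 ± 0.13, adjusted p = 0.0365, a call lost when either 8 h array or dark array 1 or 3 was left out).

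Every measured antenna gene, 13 of 21 listed, rose, by 0.87 to 3.88 with a median of 2.75. LHCB2.3, a chlorophyll a/b protein of the photosystem II antenna, had 11.27 and 11.15 at 8 h, against 7.13, 7.40 and 7.46 in the dark (3.88 ± 0.25, adjusted p = 2.00e-09). LHCA1, of the photosystem I antenna, had 12.76 on both arrays at 8 h, against 9.14, 9.33 and 9.18 in the dark. LHCB3 had 12.97 on both arrays at 8 h, against 9.99, 10.10 and 9.97 in the dark. The groups did not overlap for these genes, which was also so for 88.5% of all probe sets. Whether the probe sets keep near-identical antenna genes apart was not tested.

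All 33 measured genes of 38 listed for the photosystems and electron transport rose, by 0.49 to 4.2 with a median of 2.17, and 32 of them at least 2-fold. PSBO2, of the oxygen-evolving complex, had 12 and 11.88 at 8 h, against 8.44, 8.6 and 8.37 in the dark. PSAH2, a photosystem I subunit, rose by 3.58 ± 0.33, and PGR5-LIKE A, which acts in cyclic electron flow, by 3.35 ± 0.16. The NDH complex, which also carries cyclic electrons, was examined after its subunits were seen among the largest rises. All 12 genes measured under an Ndh or Pns symbol were higher, by 0.59 to 4.75 with a median of 3.5. PnsB3 had 9.31 and 9.19 at 8 h, against 4.82, 4.23 and 4.45 in the dark, and PnsL3 had 8.84 and 8.91 at 8 h, against 4.2, 4.3 and 4.07 in the dark.

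In the Calvin-Benson list 13 of 15 measured genes (23 listed) rose and 2 fell, with a median of 2.69. FBA1, a plastid aldolase, had 11.48 and 11.44 at 8 h, against 6.89, 6.97 and 6.91 in the dark (4.53 ± 0.34, adjusted p = 7.90e-09). CP12-2, a regulator that holds cycle enzymes inactive in the dark, rose by 3.98 ± 0.11. HCEF1, a plastid fructose-bisphosphatase, rose by 3.49 ± 0.29 and GAPB, a subunit of plastid glyceraldehyde-phosphate dehydrogenase, by 3.43 ± 0.25. CP12-3, of the same family as CP12-2, fell, with 7.46 and 7.55 at 8 h, against 8.11, 8.11 and 8.21 in the dark (-0.64 ± 0.15, adjusted p = 0.00108). The plastid aldolase gene PDE345 fell too (-0.58 ± 0.09).

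Photorespiration recovers carbon lost when Rubisco takes up oxygen. Of its 10 measured genes (17 listed) 9 rose and 1 fell, with a median of 1.93. SHM1, the mitochondrial serine hydroxymethyltransferase, had 12.15 and 12.18 at 8 h, against 8.46, 8.49 and 8.37 in the dark. GLDP1, the P protein of glycine decarboxylase, rose by 3.41 ± 0.19 and the glyoxylate aminotransferase GGT1 by 2.60 ± 0.15. AT1G80380 was lower (-0.29 ± 0.10, adjusted p = 0.0186), a call lost without 8 h array 1 or dark array 2.

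In starch and sucrose metabolism 12 of 14 measured genes (34 listed) rose and 1 fell, with a median of 1.08. CT-BMY, a plastid beta-amylase also called BAM3, had 7.74 and 8.12 at 8 h, against 3.73, 3.09 and 3.20 in the dark, where it was among the dimmest 5 percent. The starch synthase genes SS4 (1.81 ± 0.10) and SS1 (1.56 ± 0.11) and APL1 of ADP-glucose pyrophosphorylase (1.51 ± 0.17) rose, and the phloem sucrose carrier gene SUC2 fell by 0.46 (SE 0.12). For nitrogen and sulphur assimilation 8 of 13 measured genes (20 listed) rose, 1 fell and 4 did not pass, with a median of 1.27. ASN2, an asparagine synthetase, had 9.57 and 9.52 at 8 h, against 5.46, 5.02 and 5.01 in the dark (4.39 ± 0.23). Glutamate synthase GLU1 (3.20 ± 0.18), nitrate reductase NIA2 (2.32 ± 0.15) and plastid glutamine synthetase GS2 (2.28 ± 0.19) rose too. NRT1.1, a nitrate transporter and sensor, went the other way, with 8.42 and 8.36 at 8 h, against 10.26, 10.25 and 10.44 in the dark.

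All 9 genes listed for early light-induced proteins and photoprotection were measured and rose, with a median of 2.66. SIGE, the plastid sigma factor also called SIG5, had 8.79 and 9.09 at 8 h, against 4.56, 4.62 and 4.58 in the dark (4.35 ± 0.10, adjusted p = 4.02e-14). ELIP1, a thylakoid protein of the early light-induced family, had 9.63 and 10.09 at 8 h, against 6.17, 5.91 and 6.71 in the dark. Its homolog ELIP2 had 9.66 and 9.74 at 8 h, against 6.73, 6.40 and 7.65 in the dark. The dark arrays of both spread more widely than those of SIGE and still lay below the 8 h arrays. Relative to dark, ELIP1 stood at 5.62 after 2 h and 3.60 after 8 h, and ELIP2 at 5.55 and 2.78. The 8 h minus 2 h difference was -2.02 ± 0.55 for ELIP1 (adjusted p = 0.00538) and -2.77 ± 0.61 for ELIP2 (adjusted p = 0.00129).

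The 15 measured carotenoid and isoprenoid genes of 18 listed all rose, with a median of 1.47. Among them were phytoene synthase PSY, the first committed step (2.69 ± 0.19), the carotene hydroxylase CYP97A3 (3.39 ± 0.23), and the xanthophyll cycle enzymes NPQ1, the de-epoxidase (2.52 ± 0.13), and ABA1, the epoxidase (2.43 ± 0.11).

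Flavonoid and anthocyanin genes rose in 13 of 14 measured cases (21 listed), with a median of 2.39. TT4, chalcone synthase, had 11.26 and 11.51 at 8 h, against 6.42, 5.77 and 6.64 in the dark (5.11 ± 0.51, adjusted p = 2.27e-07). F3H, flavanone 3-hydroxylase, had 10.01 and 10.33 at 8 h, against 5.28, 4.07 and 4.47 in the dark. FLS1, flavonol synthase, had 8.70 and 8.95 at 8 h, against 4.76, 4.19 and 4.78 in the dark. The dark arrays of F3H spread over more than 1 log2 unit. F3H too was among the largest rises picked without overlap of the arrays, so its separation follows from the choice. The glycosyltransferase gene UGT78D1 did not pass, at 0.20 ± 0.15 (adjusted p = 0.228).

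**Figure D4:**
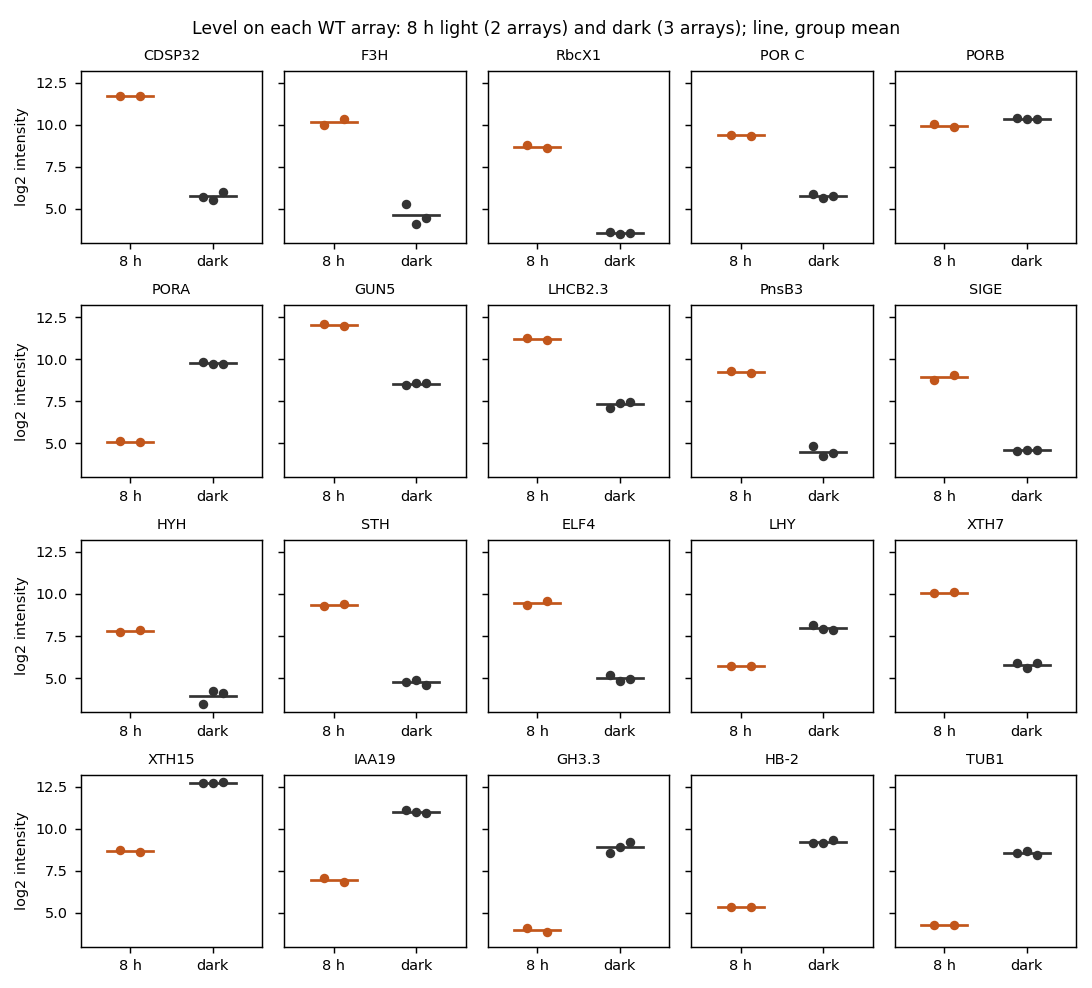
Log2 intensity (vertical axis) of 20 genes on each wild-type array, 2 after 8 h of light on the left of each panel and 3 from the dark on the right, with the group mean as a line. PORA, LHY, XTH15, IAA19, GH3.3, HB-2 and TUB1 are lower at 8 h, PORB lies at 9.95 against 10.37, and the other genes are higher.

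Light perception and signalling was a mixed list, with 16 of 24 measured genes (36 listed) higher and 8 lower and a median of 0.81. PHYA, the phytochrome of etiolated tissue, had 9.89 and 10.03 at 8 h, against 11.61, 11.82 and 11.74 in the dark (-1.76 ± 0.11, adjusted p = 1.01e-09). FHL, which helps carry phytochrome A into the nucleus, had 4.12 and 4.05 at 8 h, against 7.24, 7.39 and 7.31 in the dark. PHYB, the main phytochrome of green tissue, was higher by 0.43 ± 0.09 (adjusted p = 0.000288).

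Among transcription factors, HYH, the close homolog of HY5, had 7.73 and 7.84 at 8 h, against 3.44, 4.24 and 4.13 in the dark, a rise of 3.85 ± 0.36 whose exact size is not established because its dark level was among the dimmest 5 percent. HY5 had 8.10 and 8.42 at 8 h, against 7.32, 7.58 and 7.45 in the dark (0.82 ± 0.14, adjusted p = 7.78e-05), and stood at 2.26 relative to dark after 2 h. COP1, the ubiquitin ligase that removes HY5, rose by 1.1 ± 0.08, and RUP2, a repressor of UV-B signalling, by 3.07 ± 0.10. In the B-box family, examined after values were seen, 10 of 19 genes measured by symbol rose and 8 fell. STH (BBX25) had 9.27 and 9.41 at 8 h, against 4.78, 4.86 and 4.61 in the dark, and LZF1 (BBX22) rose by 2.59 ± 0.11. BZS1 fell by 1.32 (SE 0.14) and BBX21 by 0.94 (SE 0.08).

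Of 12 measured genes for plastid gene expression and import (33 listed) 11 rose, with a median of 1.69. PTAC16, a protein of the plastid chromosome, rose by 2.82 ± 0.23, the sigma factor SIGA by 2.53 ± 0.20 and CGA1, a GATA factor of chloroplast development, by 2.4 ± 0.18. GLK2, an activator of photosynthesis genes, had 8.75 and 8.58 at 8 h, against 7.65, 7.65 and 7.67 in the dark (1.01 ± 0.09). The import receptor gene TOC132 did not pass, at 0.12 ± 0.08.

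Most genes of dark and shade growth fell. Of 15 measured (21 listed) 13 fell, 0 rose and 2 did not pass, with a median of -1.93. HB-2 (ATHB2), a homeodomain factor of the shade response, had 5.35 and 5.36 at 8 h, against 9.15, 9.16 and 9.35 in the dark (-3.87 ± 0.11, adjusted p = 6.63e-13). XTH15, a xyloglucan-modifying wall enzyme, had 8.72 and 8.61 at 8 h, against 12.70, 12.74 and 12.75 in the dark. IAA29, an auxin repressor, fell by 3.91 (SE 0.13). Of the PIF genes measured, 2 did not pass, with PIF3 at -0.24 ± 0.13 (adjusted p = 0.0943) and PIL6, also called PIF5, at 0.24 ± 0.12 (adjusted p = 0.0745), although both passed, in opposite directions, where only the arrays compared entered the fit, and PIL6 also without dark array 2. PIL2, also called PIF6 and named here after its value was seen, fell by 0.39 (SE 0.15, adjusted p = 0.0238), a call lost without dark array 1 or 8 h array 2. PIF1, PIF4, CRY1 and GLK1 were not analysed here.

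Auxin genes fell in 17 of 25 measured cases (35 listed), 3 rose and 5 did not pass, with a median of -0.96. GH3.3, which conjugates auxin to amino acids, had 4.07 and 3.87 at 8 h, against 8.55, 8.91 and 9.18 in the dark (-4.91 ± 0.15, adjusted p = 7.80e-13). The auxin repressor gene IAA19 had 7.05 and 6.85 at 8 h, against 11.10, 10.99 and 10.96 in the dark. IAA6 had 4.23 and 4.59 at 8 h, against 8.90, 8.96 and 9.05 in the dark. IAA28, of the same repressor family, rose by 1.27 ± 0.10, and IAA14 did not pass, at -0.05 ± 0.12. All 8 genes measured under a SAUR symbol (small auxin-up RNAs), a family examined after values were seen, were lower, with a median of -2.49. They were taken by symbol alone, and whether each encodes a small auxin-up RNA was not tested. AT4G13790 had the largest fall of the table, with 3.48 and 3.08 at 8 h, against 8.12, 8.61 and 8.33 in the dark, but its 8 h level was among the dimmest 5 percent.

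In the gibberellin list 8 of 17 measured genes (24 listed) fell and 5 rose, with a median of -0.21 that is close to that of all genes. The biosynthesis genes GA20OX1 (-2.52 ± 0.19) and GA3OX1 (-2.14 ± 0.14) and the DELLA repressor gene GAI (-1.98 ± 0.10) fell, while GA3OX2 rose by 0.85 ± 0.08. Of 9 measured brassinosteroid and sterol genes (15 listed) 6 fell and 1 rose, with a median of -0.86. Those that fell included the biosynthesis genes DWF4 (-1.57 ± 0.10) and CPD (-1.35 ± 0.11) and BAS1, which inactivates brassinosteroids (-1.34 ± 0.18).

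Cell wall genes moved both ways within families. Of 28 measured (41 listed) 16 fell, 10 rose and 2 did not pass, with a median of -0.86. The shares lower and higher were 57.1% and 35.7%, against 48.6% and 32% of all genes. XTH7, a xyloglucan-modifying enzyme, had 10.06 and 10.10 at 8 h, against 5.92, 5.62 and 5.87 in the dark (4.28 ± 0.27). XTH18, of the same family, had 5.61 and 5.47 at 8 h, against 8.94, 8.85 and 8.97 in the dark (-3.38 ± 0.22). Among expansins, which loosen the wall, EXPA1 rose by 2.92 ± 0.15 and EXPB1 fell by 3.21 (SE 0.18). Arabinogalactan and fasciclin-like proteins of the cell surface, examined after values were seen, were lower in 21 of 26 genes measured by symbol and higher in 2, with a median of -1.06. AGP13 had 4.82 and 4.27 at 8 h, against 9.19, 9.26 and 9.20 in the dark. Tubulin genes, examined for the same reason, were lower in 8 of 9 cases, and 1 did not pass. TUB1, a beta-tubulin gene, had 4.29 on both arrays at 8 h, against 8.58, 8.66 and 8.44 in the dark.

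Markers of darkness and sugar starvation fell in 19 of 23 measured cases (27 listed) and rose in 3, with a median of -0.80. BCAT-2, a branched-chain aminotransferase, had 10.74 and 10.84 at 8 h, against 12.23, 12.21 and 12.20 in the dark (-1.42 ± 0.12). GDH1, a glutamate dehydrogenase, fell by 1.34 (SE 0.10) and the beta-glucosidase gene DIN2 by 1.11 (SE 0.10). Of 12 measured genes for fatty acid breakdown, the glyoxylate cycle and gluconeogenesis (26 listed) 8 fell and 1 rose. Their median of -0.28 was close to the -0.20 of all genes. PCK1, which opens gluconeogenesis from stored lipid, had 10.25 and 10.12 at 8 h, against 11.75, 11.67 and 11.69 in the dark. The peroxisomal malate dehydrogenase gene PMDH2, the member that rose, did so by 1.38 ± 0.11.

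Ethylene and jasmonate genes fell in 10 of 17 measured cases (35 listed), a share of 58.8%, and rose in 3, with a median of -0.53. Of all genes 48.6% were lower and 32% higher, with a median of -0.20. ACS5, of ethylene synthesis, had 2.60 and 2.90 at 8 h, among the dimmest 5 percent, against 4.88, 5.14 and 4.88 in the dark. AOC4, an allene oxide cyclase of jasmonate synthesis, fell by 1.51 (SE 0.10). Abscisic acid and dehydration genes rose in 11 of 18 measured cases (40 listed) and fell in 2, with a median of 0.42. LTI78, a dehydration and cold marker also called RD29A, had 10.60 and 11.04 at 8 h, against 8.01, 8.07 and 8.10 in the dark (2.76 ± 0.25). CYP707A2, which degrades abscisic acid, rose by 2.18 ± 0.10.

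Of 15 measured clock genes (27 listed) 8 rose and 5 fell, with a median of 0.36. LHY, a morning factor, had 5.72 on both arrays at 8 h, against 8.17, 7.90 and 7.88 in the dark (-2.27 ± 0.09). CCA1, its homolog, had 4.99 and 5.27 at 8 h, against 6.42, 6.41 and 6.28 in the dark (-1.24 ± 0.16). ELF4, of the evening complex, had 9.37 and 9.56 at 8 h, against 5.16, 4.84 and 4.97 in the dark (4.48 ± 0.14, adjusted p = 1.14e-12). LHY and CCA1 were thus lower and ELF4 higher. The clock-controlled genes CDF1 and AT5G64170, also called LNK1, rose by 1.59 ± 0.11 and 1.03 ± 0.12. AT3G54500, also called LNK2, was lower (-1.54, adjusted p = 3.51e-08). So was CDF2, named here after its value was seen (-0.41, adjusted p = 0.00909). LCL1, of the same family as LHY and CCA1, did not pass (0.15 ± 0.08), though it did without dark array 1 and with array weights. In that family RVE8 was lower (-0.78, adjusted p = 0.00354). RVE2, named here after its value was seen, was higher (0.36, adjusted p = 0.00876). PRR5 rose by 2.06 ± 0.12, TOC1 by 0.80 ± 0.10 and GI by 0.86 ± 0.10. Relative to dark, LHY stood at 1.58 after 2 h and CCA1 at 1.68, and the 8 h minus 2 h difference was -3.85 ± 0.10 for LHY (adjusted p = 1.17e-12). The sources used here give no hour of day for the harvest.

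Heat shock and cytosolic chaperone genes were higher at 8 h in 19 of 21 measured cases (25 listed) and lower in 1, with a median of 1.64. The median relative to dark was 3.46 after 2 h and 2.56 after 4 h, and 18 of the 21 were lower at 8 h than at 2 h, with 0 higher, against 2294 lower and 1484 higher of all 6481 genes. HSP17.6A, a small heat shock protein, had 8.24 and 8.39 at 8 h, against 4.60, 4.60 and 4.47 in the dark (3.76 ± 0.20). The constitutive chaperone gene HSC70-1 was lower at 8 h (-0.33 ± 0.09). Of 7 measured endoplasmic reticulum chaperone genes (14 listed) 5 rose and BZIP60, a factor of the unfolded protein response, fell (-0.37 ± 0.08).

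Redox and singlet oxygen genes rose in 12 of 23 measured cases (33 listed), fell in 6 and did not pass in 5, with a median of 0.60. PRXQ, a plastid peroxiredoxin, had 11.21 and 11.01 at 8 h, against 7.59, 7.42 and 7.53 in the dark (3.60 ± 0.35). Ferritin FER3 rose by 1.80 ± 0.14 and the alternative oxidase gene AOX1A by 1.62 ± 0.14. BCS1, a mitochondrial stress marker also called OM66, had 3.84 and 3.83 at 8 h, among the dimmest 5 percent, against 4.76, 4.77 and 4.93 in the dark, and had stood at 3.04 relative to dark after 2 h. WRKY40, a stress-responsive factor, had 6.98 and 6.99 at 8 h, against 6.96, 7.06 and 7.10 in the dark, did not pass (-0.05 ± 0.11), and had stood at 1.80 after 2 h.

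**Figure D5:**
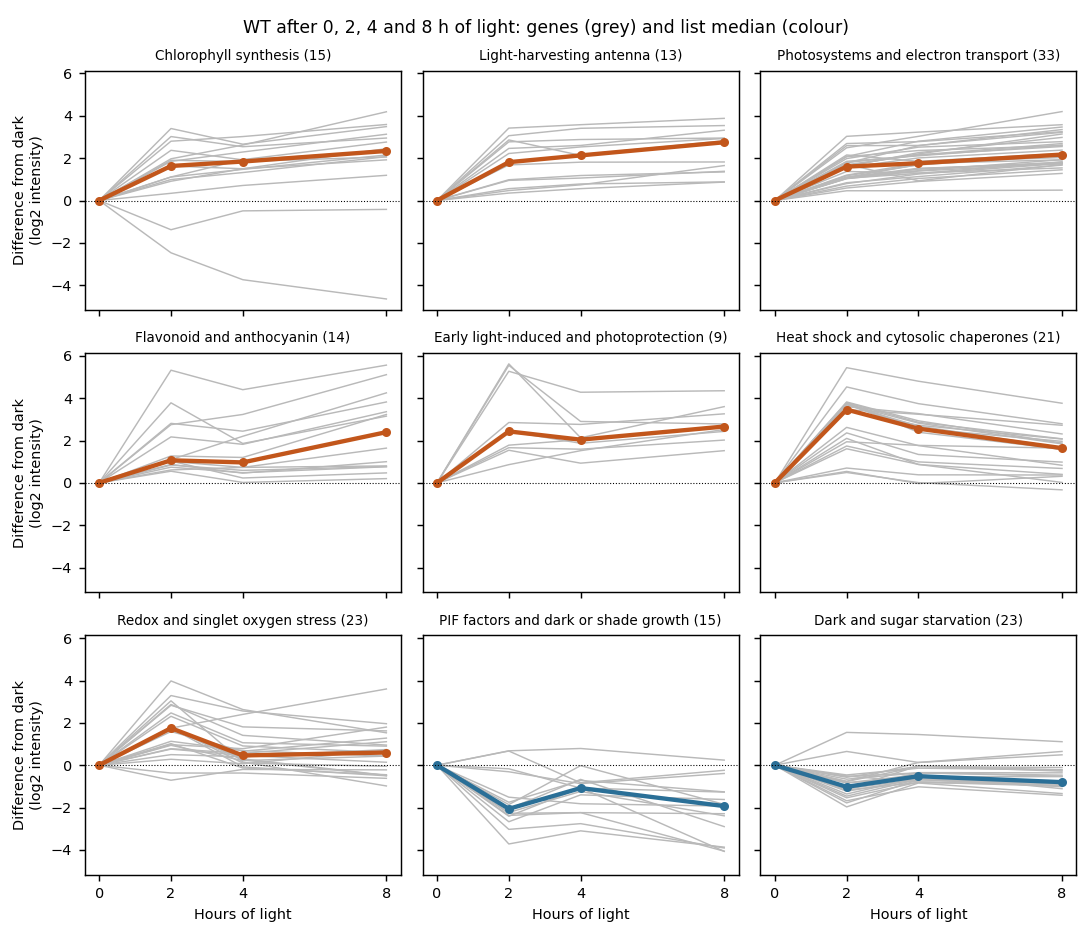
Difference from wild-type dark in log2 intensity (vertical axis) after 0, 2, 4 and 8 h of light (horizontal axis) for the measured members of 9 lists and their median. The antenna median is 1.81 at 2 h and 2.75 at 8 h, and the heat shock median is 3.46 at 2 h and 1.64 at 8 h; all times share the 3 dark arrays.

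Of 7 measured genes of dividing cells (36 listed) 5 fell and 2 rose, with the mitotic cyclin gene CYCB1;4 at -1.08 ± 0.11 and the ribonucleotide reductase gene RNR2A at 1.47 ± 0.09. Among 20 genes annotated as cytosolic ribosomal proteins 11 fell and 5 rose (55% and 25%), against 48.6% and 32% of all genes. Their median of -0.29 was close to the -0.20 of all genes. Among 9 ribosomal genes assigned to the plastid from annotation alone 4 rose and 1 fell, with a median of 0.11 and RPL27 at 2.04 ± 0.20. The differences ran from -1.02 for AT2G07725 to 2.89 for PSRP3/1. Whether each of these genes belongs to the plastid ribosome was not tested, so the median may not be that of plastid ribosome genes.

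The length of the light period was examined by setting 8 h against the earlier wild-type times; these comparisons share the 8 h arrays with the one above. Against 2 h, 3956 probe sets passed (57.8%), 1544 higher (22.6%) and 2412 lower (35.2%) at 8 h, and 972 differed at least 2-fold (14.2%), 379 higher (5.54%) and 593 lower (8.66%). Against 4 h, 2719 passed (39.7%), 1182 higher (17.3%) and 1537 lower (22.4%), and 364 differed at least 2-fold (5.32%), 162 higher (2.37%) and 202 lower (2.95%). The split against 2 h depended on the scaling, since 61% of the calls were lower as deposited, 48.3% after a further quantile normalization and 50.8% after centring each array. Against 4 h these shares were 56.5%, 50.5% and 52.5%. The median of all probe sets against 2 h was -0.10, 0.02 and -0.01 under these scalings, and differences near that size carry no direction.

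Among the largest differences of 8 h from the earlier times, RbcX1 stood at 0.43, 2.44 and 5.12 relative to dark after 2, 4 and 8 h, and its 8 h minus 2 h difference was 4.69 ± 0.12 (adjusted p = 7.51e-13). FBA5 stood at 1.35, 2.95 and 5.06, and ASN2 at 1.15, 2.15 and 4.39. F3H, in contrast, was already at 5.32 after 2 h. Among the falls, XTH18 stood at 2.22, 0.17 and -3.38, above dark at first and below it at 8 h. MSRB9, a methionine sulfoxide reductase gene, stood at -0.74, -0.67 and -3.62.

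For several auxin and gibberellin genes the 4 h level lay above both neighbours. IAA6 stood at -2.07, -0.66 and -4.56 relative to dark after 2, 4 and 8 h, and its 8 h minus 4 h difference was -3.90 ± 0.20 (adjusted p = 4.68e-09). IAA19 stood at -2.41, -1.07 and -4.07, and GA20OX1 at -1.92, 1.23 and -2.52. Across the auxin list 18 of 25 genes were lower at 8 h than at 4 h and 1 was higher, against 1466 lower and 1131 higher of all 6481 genes.

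The 8 h response differed between wild type and jmj17-1 for 78 probe sets (1.14%), 43 with a higher value in wild type (0.628%) and 35 with a lower one (0.511%), and by at least 2-fold for 17 (0.248%), 6 higher (0.0876%) and 11 lower (0.161%). The count ran between 1 and 205 over the alternative fits, and its split turned with the scaling, with 42 higher and 60 lower after a further quantile normalization and 44 and 94 after centring. PHI-1, a phosphate-induced gene, stood at 1.11 in wild type, against 2.57 in jmj17-1, a difference of -1.45 ± 0.14 (adjusted p = 0.000168) that passed in 17 of 17 alternative fits.

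Probe sets outside the authors' table were read from the deposited value table, whose columns were assigned to arrays by equality of values with the first table and not by their own labels. Over all 22810 probe sets 10362 passed between 8 h and dark (45.4%). Of the 15963 left out by the authors 5036 passed (31.5%), 2220 higher (13.9%) and 2816 lower, and 706 differed at least 2-fold (4.42%).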

How the data were processed

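RNA of whole seedlings, extracted with the RNeasy Plant Mini Kit per the labels' protocols, was hybridised to 18 ATH1 arrays. The deposited intensity values were summarised by RMA with quantile normalization, per the file headers, and the authors' list was chosen by a moderated test in their software, per the file headers. GCOS 1.4 is named in the submitters' processing notes. The deposited value table holds log2 values; 16 of its 18 columns equal the array of another title, so it was used only through equality of values (tolerance 0.0001). The first table holds 18 further per-sample columns, which were not used.

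The log2 of the intensities was fitted with limma 3.58.1 (R 4.3.3), with 1 mean per genotype and light group over all 18 arrays, 10 residual and 4.91 prior degrees of freedom, and Benjamini-Hochberg adjustment over 6847 probe sets at 0.05. Python 3.11.15 was used for all tables, with pandas 2.3.3 and NumPy 2.4.6, and matplotlib 3.10.9 for the plots. A single locus was annotated for 6514 probe sets, more than 1 for 285 and no locus for 48; symbols come from the RefSeq annotation, which matched 6480 of 6481 loci, and a gene with several probe sets is given by its brightest. The fit was tested on simulated data.

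Members and gene lists were chosen with earlier results of these data known. Genes named are the 15 largest rises and 15 largest falls with arrays that do not overlap, up to 4 passing members of each list in each direction and up to 2 that did not pass, a set of known photomorphogenesis genes, and the 5 largest differences each way in the other comparisons; the text gives a selection of these. Ribosomal lists were taken from the annotation columns of the table, in place of gene descriptions. Promoter sequences were not used here. Alternatives were other samples in the fit, 2 scalings, a filter on dim probe sets, array weights, the replicate block, the value table and each array left out.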

Additional observations from a re-analysis of the deposited data

Results flagged for a closer look

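The 8 h response differed between wild type and jmj17-1 for 78 probe sets by the test of the difference itself. Of the genes named in the report, leaving aside AT3G54500, CDF2, RVE8 and RVE2, 2 were among them. PHI-1 had a wild type minus jmj17-1 difference of -1.45 and passed in 17 of 17 alternative fits. CYP707A2 had one of 0.69 (0.63 to 0.76 over 16 alternatives) and lost the call in 7 of them: with only the arrays compared, over the value table, without wild-type dark array 2 or 3, without either wild-type 8 h array, and without jmj17-1 8 h array 1. Outside the authors' table, 5036 probe sets that no comparison of the report describes gene by gene passed between 8 h and dark in wild type.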

How the results depend on the processing

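The counts between 8 h and dark stayed between 5429 and 5769 under other samples in the fit, both scalings, array weights, the replicate block (5429) and with mutant dark array 2 left out. They were 3472 without the dimmest 40 percent, where fewer probe sets were tested, and 10362 over the value table, where more were. Leaving out 1 array gave 5036 to 5358. For 8 h against 2 h the same 2 settings gave 2551 and 7710, and leaving out 1 array 3294 to 3479; for 8 h against 4 h the value table gave 4178 and leaving out 1 array 1926 to 2358. The difference between wild type and jmj17-1 was the least stable: 1 with only the arrays compared, 138 after centring, 32 without the dimmest 40 percent, 195 with array weights and 35 over the value table. It ran between 1 and 205 when 1 array was left out: 4 and 1 without wild-type 8 h array 1 or 2, 31 and 7 without wild-type dark array 2 or 3, 205 and 137 without jmj17-1 dark array 1 or 3, and 4 without jmj17-1 8 h array 1. The cause was not tested. Calls lower between 8 h and dark were 60.5% as deposited, 61.5% after quantile normalization and 62.5% after centring. Leaving aside AT3G54500, CDF2, RVE8 and RVE2, 124 named genes passed. Of these, 4 (FLU, SCR, PIL2 and AT1G80380) lost the call in some alternative and 0 changed direction. Besides the arrays left out that are given with each gene, 2 of the 4 lost it after centring. The same number lost it over the value table and with the replicate block. Among named genes that had not passed, 4 gained a call with only the arrays compared and 2 with array weights. Leaving out mutant dark array 2, dark array 1 or dark array 2 gave 1 such gene each, as did the replicate block. IAA14 and OLEO2, which had not passed, changed sign: with 1 array left out IAA14 ran between -0.15 and 0.04, positive without dark array 1 (0.01) and 8 h array 1 (0.04), and OLEO2 between -0.03 and 0.47, negative without dark array 3 and 8 h array 2 (-0.03 each). Same-numbered arrays of 8 h and dark had deviations that correlated at 0.169 and 0.0828. With 2 arrays at 8 h these deviations mirror each other (0.169 and -0.169 against dark array 1). The check therefore cannot decide whether same-numbered samples were paired. The replicate block changed no count by over 1.5 times.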
